A study of Rattus norvegicus with 12 samples.

Results

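The protein kinase C isoforms were examined in the left ventricle of rats that had run on a treadmill for 7 weeks and of sedentary rats. The members were every probe set, the set of array probes read out as 1 value, whose annotation named a single gene among Prkca, Prkcb, Prkcd, Prkce, Prkch, Prkcq and Prkcz. This gave 14 of the 8740 probe sets in the table, for 6 of the 7 genes and of the 4736 genes that single-gene probe sets name. No probe set of the table was annotated to Prkcq alone, and that isoform was not analysed here.

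Total RNA of 6 exercised samples (numbered 1, 4, 5, 7, 8 and 9 in the labels) and 6 sedentary samples (13, 16, 17, 21, 23 and 24) was measured on 1 single-channel array each. The values are linear intensities with array medians between 840 and 875. The sources used here do not give the rats' age, sex or strain, the running schedule, or the time from the last run to tissue collection. Nothing in the labels says whether each sample came from its own animal. The p-values therefore reflect only the spread from sample to sample, part of which may be technical.

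Protein kinase C enzymes are serine/threonine kinases that act downstream of receptors coupled to Gq proteins. Such receptors activate phospholipase C, which releases diacylglycerol at the membrane and, through inositol trisphosphate, calcium from internal stores. Classical isoforms (Prkca, Prkcb) respond to both calcium and diacylglycerol, calcium-independent isoforms (Prkcd, Prkce, Prkch) to diacylglycerol alone, and atypical isoforms (Prkcz) to neither. In the heart the family is known for its part in contractility, hypertrophic growth and protection against ischaemia.

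Of the 6 genes, 4 had an entry in the RefSeq promoter table (build GRCr8), Prkca, Prkcd, Prkce and Prkcz, and Prkcb and Prkch had none. The 250 bases before the start of Prkca (chr10:93787328-93787577, minus strand) and of Prkcd (chr16:5805840-5806089, minus strand) are shown 5′ to 3′. They put a classical isoform with lower values in exercised samples beside a calcium-independent isoform near no difference. Capitals mark GGGCGG on either strand, the core of the GC box bound by Sp1.
Prkca: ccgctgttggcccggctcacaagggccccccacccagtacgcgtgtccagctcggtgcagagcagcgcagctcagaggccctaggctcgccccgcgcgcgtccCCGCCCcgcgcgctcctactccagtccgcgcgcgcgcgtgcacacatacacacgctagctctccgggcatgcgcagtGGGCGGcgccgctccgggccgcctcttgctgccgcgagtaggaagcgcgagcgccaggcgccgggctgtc
Prkcd: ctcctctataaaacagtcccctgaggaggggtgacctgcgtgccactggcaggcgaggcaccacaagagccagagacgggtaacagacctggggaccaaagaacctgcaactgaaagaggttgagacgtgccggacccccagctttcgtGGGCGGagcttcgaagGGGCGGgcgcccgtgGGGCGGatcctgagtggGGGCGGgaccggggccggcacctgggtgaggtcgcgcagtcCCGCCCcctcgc
The motif occurred 2 times in the Prkca window and 5 times in that of Prkcd, 5 times in that of Prkcz and 1 time in that of Prkce. Of the 33469 windows of this length in the table, 30.5% held it at least 1 time, 14.8% at least 2 times and 1.72% at least 5 times. GC content was 74.8% for Prkca, 67.6% for Prkcd, 68.8% for Prkce and 72.0% for Prkcz, against a median of 51.2% over all windows. These matches describe the letters of the windows and were not related to the array values.

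The single comparison of the design asked whether the isoforms differ between trained and untrained ventricles. Of the 14 probe sets, 10 passed a filter on the mean over all 12 arrays (above an intensity of 434, blind to group) and were tested. None of the 10 passed an adjusted p of 0.05 (limma, two-sided, Benjamini-Hochberg adjustment over all 6555 tested probe sets), where 0.32% of all tested probe sets did (0.275% higher and 0.0458% lower). At an unadjusted limma p under 0.05 there were 3 of the 10, 2 lower (Prkca and 1 probe set of Prkcb) and 1 higher (Prkch). Over all tested probe sets that share was 16.2%, with 6.91% lower and 9.26% higher. The exact permutation test over the samples also gave 3 of the 10 at an unadjusted p under 0.05, against 17.6% of all tested probe sets. After adjustment none could pass by this test. Its smallest possible p is 0.00216, and the smallest adjusted p over all tested probe sets was 0.104. No tested isoform probe set separated the groups without overlap, and 2.07% of all tested probe sets did.

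Each difference below is the exercised mean less the sedentary mean of log2(intensity + 363), a scale on which changes of dim probe sets come out too small. By class, the 3 tested probe sets of the classical isoforms were all lower by sign, with a median of -0.106 and a range of -0.125 to -0.0933. Of the 6 tested probe sets of calcium-independent isoforms 2 were higher and 4 lower, with a median of -0.0144. The single tested probe set of the atypical isoform gave 0.0553. The median over all tested probe sets was 0.00266. The classes were described by these counts alone, and whether they differ from each other was not tested.

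**Figure D1:**
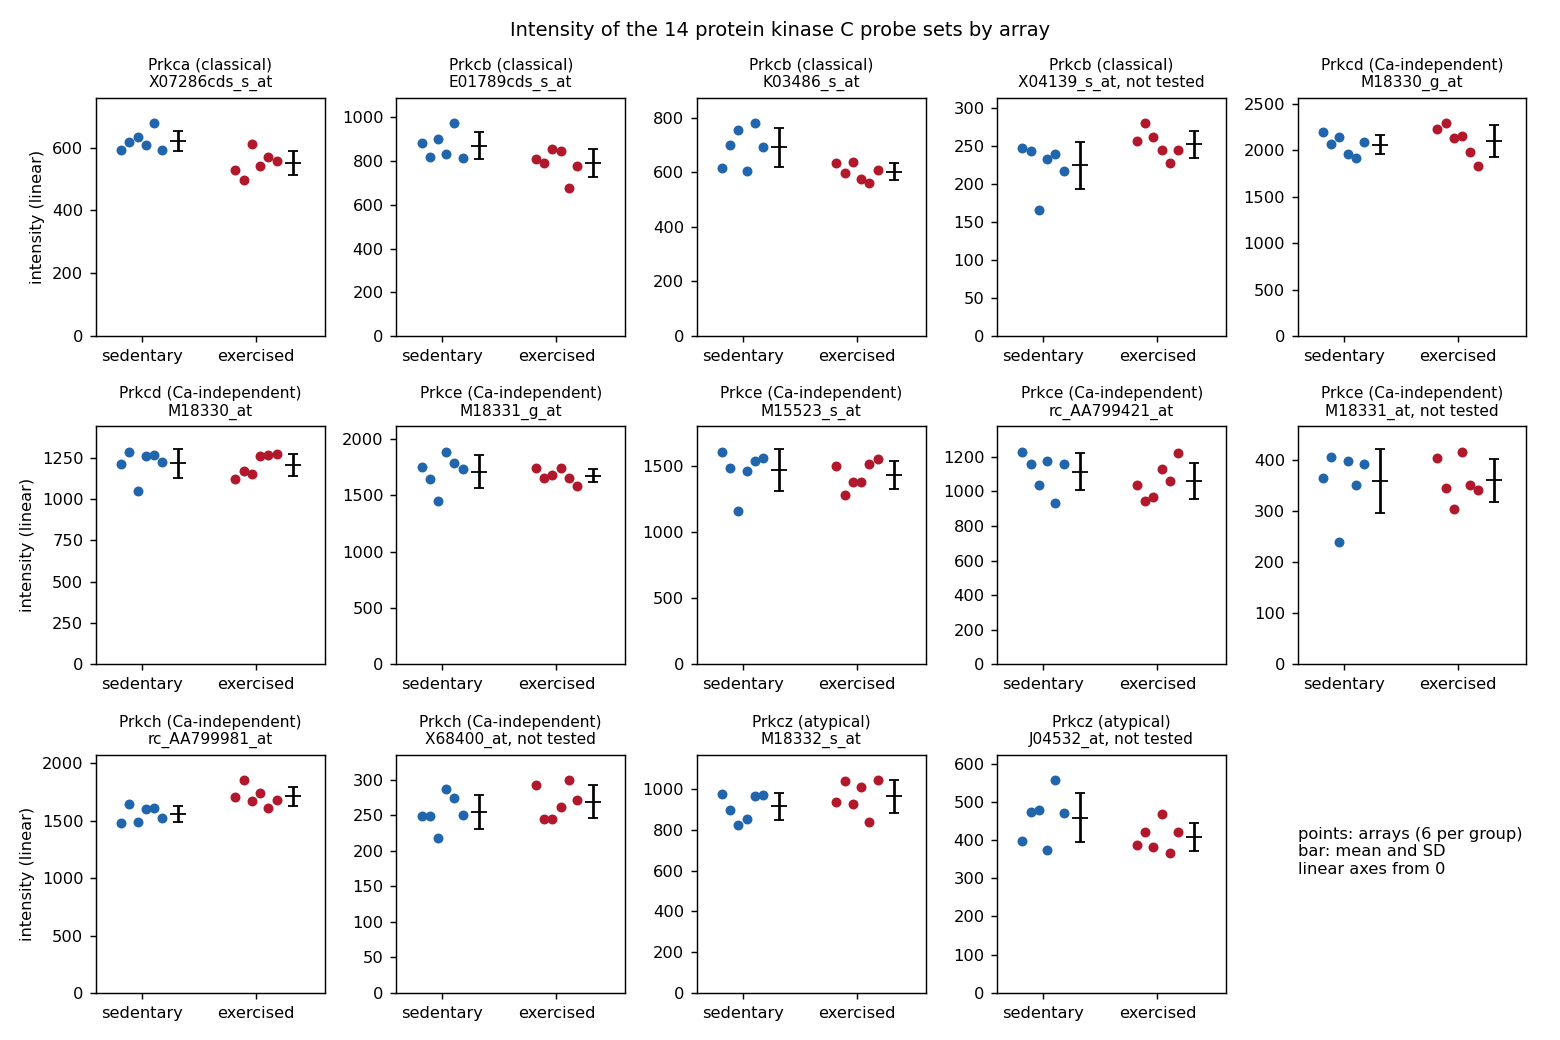
Linear intensity (vertical axes, from 0) of each of the 14 protein kinase C probe sets on the 6 sedentary (blue) and 6 exercised (red) arrays, with the mean and SD of each group beside the points. The Prkca values lie between 498 and 613 in exercised and between 591 and 677 in sedentary samples, and the bright Prkch probe set shows the opposite order with 5 exercised arrays above every sedentary one.

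Prkca, the main calcium-dependent isoform of the ventricle and a regulator of contractility, was measured by X07286cds_s_at. Its intensity was 498 at the lowest, 548 at the median and 613 at the highest in exercised samples, and 591, 613 and 677 in sedentary samples. Of the 6 exercised samples, 5 lay below every sedentary one, and exercised 5 was the exception. The means were 551.2 ± 39.3 and 620.4 ± 32.2 (SD, n = 6 each), a change in mean intensity of -11.1%. The difference was -0.106 ± 0.0362 (SE), with a 95% interval of -0.183 to -0.0281 and a limma adjusted p of 0.171. The exact permutation test gave an unadjusted p of 0.00866 and an adjusted p of 0.144.

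Prkcb, the other classical isoform, had 3 probe sets that disagreed in sign. On K03486_s_at the exercised samples had 561, 604 and 639 (lowest, median, highest) and the sedentary samples 604, 697 and 780. The sedentary samples spread more widely, and sedentary 13 and 21 lay within the exercised range. The difference was -0.125 ± 0.0447 (602.8 ± 31.1 against 692.0 ± 71.2, n = 6 each), with an interval of -0.221 to -0.0296 and a limma adjusted p of 0.182. On E01789cds_s_at the exercised samples had 678, 801 and 856 and the sedentary samples 813, 857 and 972. Here 4 exercised samples lay below every sedentary one, and the difference was -0.0933 ± 0.0454 (interval -0.19 to 0.00382, limma adjusted p = 0.33, n = 6). On both probe sets each of the 6 exercised samples was below the sedentary mean. How often such a count occurs over all tested probe sets was not computed.

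The dimmest Prkcb probe set, X04139_s_at, went the other way but did not pass the filter. Its intensities ran from 228 to 280 in exercised and from 166 to 247 in sedentary samples, at percentile 10.1 of the table's probe set means. In the fit without a filter it gave 0.0686 ± 0.0348 (limma adjusted p = 0.351, n = 6). The tested classical probe sets were also below the middle, at percentiles 35.2 (Prkca), 39.3 (K03486_s_at) and 48.8 (E01789cds_s_at). Names ending in _s_at or _g_at mark probe sets that can share probes with related transcripts or with a partner set, so part of their signal may belong to another transcript.

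Prkcb is also a kinase of B cells and other leukocytes, and the samples are whole tissue, so fewer cells of a type and less RNA per cell cannot be told apart. Of 11 measured T and B lymphocyte markers, 7 were lower and 4 higher by sign in exercised samples, with none past the threshold. Their differences ran from -0.194 for Cd247, a chain of the T cell receptor complex (limma adjusted p = 0.132), to 0.083 for Cd3g (0.446), another chain of it. The chains of the CD8 coreceptor had opposite signs (Cd8b -0.158, Cd8a 0.0585), and the B cell marker Cd79b gave -0.013. The summed intensity of the 11 markers lay between 10233 and 10849 in exercised and between 10670 and 11391 in sedentary samples, and none was at 0. Their part in the Prkca and Prkcb values was not tested.

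Prkcd, a calcium-independent isoform known for its part in cell death after ischaemia, was measured by a pair of probe sets of the same sequence. On M18330_g_at the intensities were 1825, 2139 and 2287 (lowest, median, highest) in exercised and 1912, 2074 and 2190 in sedentary samples. The groups overlapped over most of their range, and the difference was 0.0219 ± 0.053 (interval -0.0917 to 0.135, limma adjusted p = 0.851, n = 6). On M18330_at they were 1120, 1213 and 1269 against 1046, 1240 and 1284, with a difference of -0.00687 ± 0.0454 (interval -0.104 to 0.0905, limma adjusted p = 0.954, n = 6). The difference of M18330_at ran from -0.0391 to 0.00925 with 1 array left out.

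Prkce, the calcium-independent isoform best known from ischaemic preconditioning, had 4 probe sets. The brightest, M18331_g_at, had 1581, 1666 and 1740 in exercised and 1451, 1742 and 1883 in sedentary samples, so the exercised range lay inside the sedentary one. Its difference was -0.0219 ± 0.0505 (interval -0.13 to 0.0863, limma adjusted p = 0.846, n = 6). M15523_s_at ran from 1276 to 1552 in exercised and from 1160 to 1604 in sedentary samples, and rc_AA799421_at from 945 to 1223 and from 935 to 1228, so on both the exercised range again lay inside the sedentary one. Their differences were -0.0241 (M15523_s_at, interval -0.157 to 0.109, adjusted p = 0.862) and -0.0528 (rc_AA799421_at, interval -0.178 to 0.0723, adjusted p = 0.665). The dim M18331_at, below the filter, had 305 to 416 in exercised and 240 to 406 in sedentary samples and gave 0.00587 in the fit without a filter. All 3 tested Prkce probe sets were thus lower by sign, by amounts within their standard error, and their intervals leave room for a change of up to 0.178 downward or 0.109 upward.

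**Figure D2:**
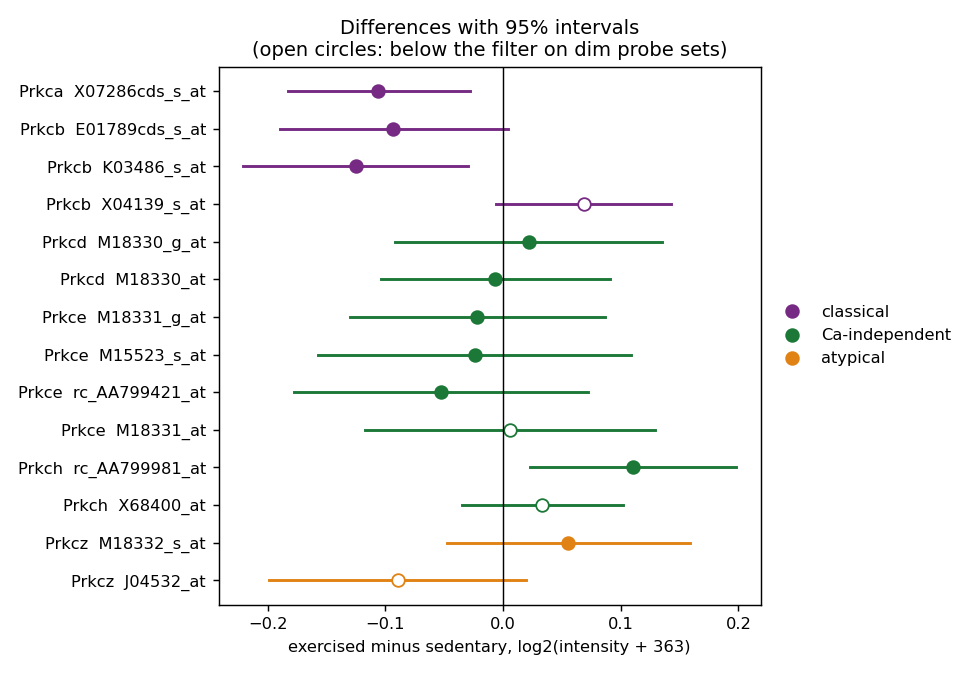
Exercised minus sedentary difference of each probe set on the log2(intensity + 363) scale (horizontal axis) with its 95% interval, coloured by class, with open circles for the 4 probe sets below the filter. The intervals of Prkca, of Prkcb on K03486_s_at and of Prkch on rc_AA799981_at do not include 0 before adjustment for multiple tests, and the other 11 do.

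Prkch, a calcium-independent isoform known from epithelial, endothelial and immune cells, had the largest difference upward. On rc_AA799981_at the exercised samples had 1610, 1696 and 1852 (lowest, median, highest) and the sedentary samples 1480, 1565 and 1643. Of the 6 exercised samples 5 lay above every sedentary one, and exercised 8 was within the sedentary range. The means were 1711.7 ± 81.8 and 1558.6 ± 68.9 (SD, n = 6 each), 9.82% higher in exercised samples. The difference was 0.11 ± 0.0408, with an interval of 0.023 to 0.198 and a limma adjusted p of 0.202. The exact permutation test gave an unadjusted p of 0.00433 and an adjusted p of 0.127.

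The other Prkch probe set, X68400_at, was dim and did not pass the filter. It had 244 to 299 in exercised and 218 to 287 in sedentary samples, and in the fit without a filter it gave 0.0332 ± 0.0319 (limma adjusted p = 0.614, n = 6). Both Prkch probe sets were higher by sign, but with group means removed they did not vary together over the 12 arrays (Pearson r = -0.0145). Of 5 measured endothelial markers 3 were lower and 2 higher by sign, with summed intensities of 5918 to 6629 in exercised and 6206 to 7390 in sedentary samples and none at 0. Among 6 measured macrophage and granulocyte markers 3 were higher and 3 lower by sign. Lyz2 passed the threshold upward (0.997, limma adjusted p = 0.0404), C1qb gave 0.368 (0.091) and Csf1r -0.173 (0.177). The summed intensities of the 6 markers did not overlap, at 9232 to 16208 in exercised and 7828 to 9076 in sedentary samples. Most of that gap came from Lyz2 alone (5421.3 ± 2100 against 2400.8 ± 297, SD), so the sum does not describe the list as a whole. The part of these cell types in the Prkch value was not tested.

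Prkcz, the atypical isoform, works in polarity and scaffold complexes and does not bind diacylglycerol. On M18332_s_at the intensities were 838, 974 and 1044 (lowest, median, highest) in exercised and 824, 934 and 978 in sedentary samples. The groups overlapped, and 5 of 6 exercised samples were above the sedentary mean. The difference was 0.0553 ± 0.0482 (interval -0.0479 to 0.159, limma adjusted p = 0.577, n = 6). The second probe set, J04532_at, had the opposite sign. It ran from 366 to 469 in exercised and from 375 to 556 in sedentary samples, and its mean of 433 lay just under the filter. Without a filter it gave -0.0896 ± 0.0508 (limma adjusted p = 0.395, n = 6). Over the 12 arrays with group means removed the Prkcz pair had r = 0.44. That is within the range for tested pairs of different isoforms (-0.653 to 0.676). J04532_at had a higher r with K03486_s_at of Prkcb (0.686).

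Agreement between probe sets of the same gene was uneven. Over the 12 arrays with group means removed, the 12 pairs of probe sets of 1 gene had r from -0.605 to 0.745, with a median of 0.432. The pair of Prkcb probe sets that were lower had r = 0.539. The highest value joined the pair from the M18331 sequence of Prkce (0.745), and the lowest joined the pair from the M18330 sequence of Prkcd. The 40 pairs of tested probe sets of different isoforms had r from -0.653 to 0.676, with a median of 0.0454. The 5 pairs of 1 gene with both probe sets tested had -0.605 to 0.567, with a median of 0.47, so the ranges overlapped widely. These are descriptions over 12 arrays that share their scaling.

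**Figure D3:**
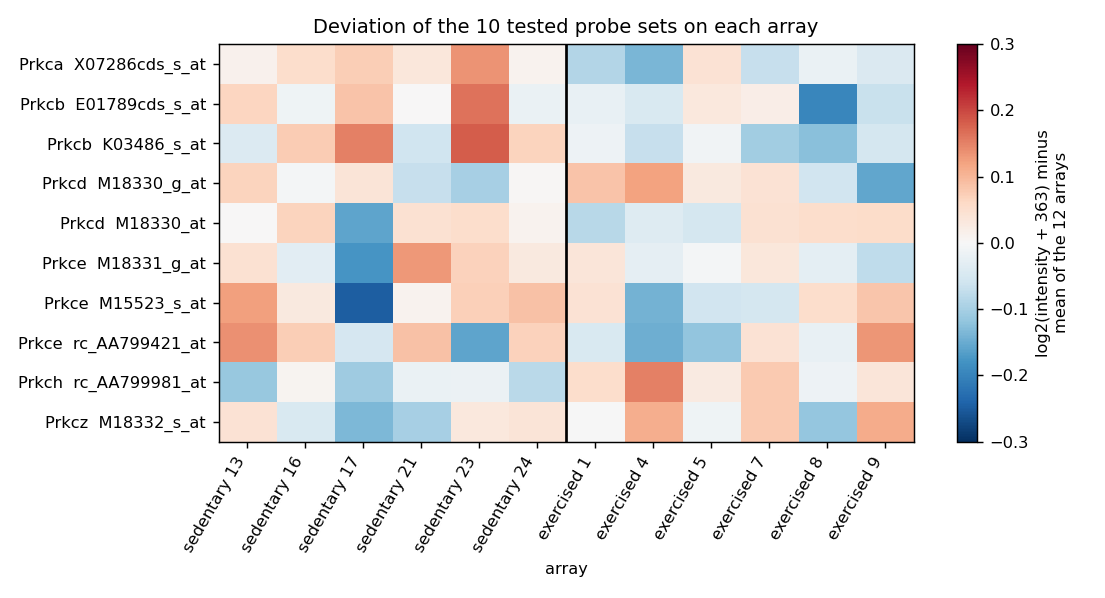
Deviation of the 10 tested probe sets (rows) from their own mean over the 12 arrays, on the log2(intensity + 363) scale, for the sedentary arrays (left of the line) and exercised arrays (right). All 3 rows of the classical isoforms are highest on sedentary 23 and next highest on sedentary 17, Prkca is lowest on exercised 4 and both Prkcb rows on exercised 8, and Prkce and Prkcd are lowest on sedentary 17 for 3 of their rows.

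The classical probe sets shared their highest arrays but not their lowest. Prkca was lowest on exercised 4 (-0.138) and near its mean on exercised 8 (-0.021), where the Prkcb probe sets gave -0.196 and -0.126. With group means removed, Prkca had r = 0.334 and 0.486 with the tested Prkcb probe sets over the 12 arrays. The mean deviation of the 3 tested Prkca and Prkcb probe sets was highest on sedentary 23 (0.16) and sedentary 17 (0.104) and lowest on exercised 8 (-0.114) and exercised 4 (-0.0845). Exercised 5 lay at 0.0221 and sedentary 21 at -0.008, so the groups overlapped on this mean too. Sedentary 17 also had the lowest intensity of its group on M15523_s_at (1160 against 1459 to 1604) and M18331_g_at of Prkce and on M18330_at of Prkcd (1046 against 1210 to 1284). Without sedentary 17 the difference was -0.101 for Prkca, -0.108 for Prkcb on K03486_s_at and 0.1 for Prkch, and no isoform passed the threshold.

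Genes that act around the kinases were taken from 7 lists of 140 genes, of which 89 were measured, with 1 probe set per gene. None passed an adjusted p of 0.05 (limma), where 0.413% of the 3876 measured genes did. At an unadjusted limma p under 0.05 there were 18, or 20.2%, 9 higher and 9 lower, against 16.1% of all measured genes. Over the 89 genes 46 had higher and 43 had lower values, with a median of 0.00337, and the median over all genes was 0.00292.

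Upstream, 5 of 8 phospholipase C genes were higher by sign (median 0.0204) and 10 of 16 Gq-coupled receptors, G proteins and their regulators (median 0.03). Without sedentary 17 these medians were -0.00446 and -0.00402. Plcb4, a Gq-activated phospholipase C, had means of 2517.7 ± 126 in exercised and 2193.2 ± 204 in sedentary samples (0.175, limma adjusted p = 0.16), and its other probe set gave 0.015. Plcg1, the phospholipase C of receptor tyrosine kinases, gave -0.0917 (0.446). Htr2b, a serotonin receptor that couples to Gq, had 684 to 822 in exercised and 829 to 1136 in sedentary samples. These ranges did not overlap, as for 2.07% of all tested probe sets, and the difference was -0.281 ± 0.0614 (limma adjusted p = 0.0617, n = 6). Htr2b passed without sedentary 13 (limma adjusted p = 0.0383) and with no other single array left out. The limma adjusted p was 0.114 without exercised 4 and 0.13 without exercised 8. The angiotensin receptor gene Agtr1b gave -0.169 (adjusted p = 0.248) on a probe set that can share signal with Agtr1a, and -0.0914 and -0.0265 on its other ones.

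For the lipid messengers and inositol phosphates 10 of 21 genes were higher by sign (median -0.00777). Itpr3, a calcium release channel opened by inositol trisphosphate, gave 0.181 (limma adjusted p = 0.258), its other probe set gave -0.0132, and the lipid phosphatase Plpp2 gave 0.112 (0.318). Among kinases, phosphatases and chaperones that set the state of protein kinase C, 5 of 8 were higher (median 0.0361). Akt1, a kinase that shares its activating kinases with this family, had means of 3244.4 ± 211 in exercised and 3855.9 ± 380 in sedentary samples (-0.223, adjusted p = 0.124). Its other probe set gave -0.0943. Ppp2r2a, a regulatory subunit of protein phosphatase 2A, gave 0.152 (adjusted p = 0.243), and its other probe sets 0.0643 and -0.0081.

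Of 16 anchoring and interacting proteins 9 had higher and 7 had lower values (median 0.0522), with 5 and 2 at an unadjusted limma p under 0.05. Over all 3876 measured genes 16.1% reached that p, 357 higher and 268 lower. The lists were chosen with earlier results of these data known, and whether this list differs from all genes was not tested. Pawr, whose product binds and inhibits the atypical isoforms, had 426 to 495 in exercised and 511 to 611 in sedentary samples, without overlap, as for 2.07% of all tested probe sets. Its difference was -0.144 ± 0.0343 (limma adjusted p = 0.0787, n = 6). Cavin3, a caveolar protein that binds Prkcd, did not overlap either and lay higher, with 5492 to 6136 in exercised and 4255 to 5380 in sedentary samples (0.193, adjusted p = 0.132, and 0.173 on its other probe set). The 14-3-3 gene Ywhaz gave -0.191 (0.128), and its other probe sets gave 0.00196 and -0.0379.

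Downstream, 5 of 11 substrates and kinases had higher and 6 had lower values (median -0.0316, with 0.00155 without exercised 7 and -0.0628 without exercised 9). Add3, an adducin of the membrane skeleton, gave -0.153 (limma adjusted p = 0.182), its other probe set gave 0.0472, and the phosphatase inhibitor gene Ppp1r1a gave -0.121 (0.331) with -0.139 on its other one. Of 9 measured early response genes inducible through protein kinase C, 2 had higher and 7 had lower values. Their median was -0.0925, and it ran from -0.142 without sedentary 13 to -0.0301 without exercised 4. Jund gave -0.12 (limma adjusted p = 0.248) and Myc -0.108 (0.276), and both genes overlapped between the groups. Jund intensities were 599 to 646 (exercised) against 630 to 890 (sedentary). For Myc the whole exercised range, 959 to 1088, fell within the sedentary range of 958 to 1209.

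**Figure D4:**
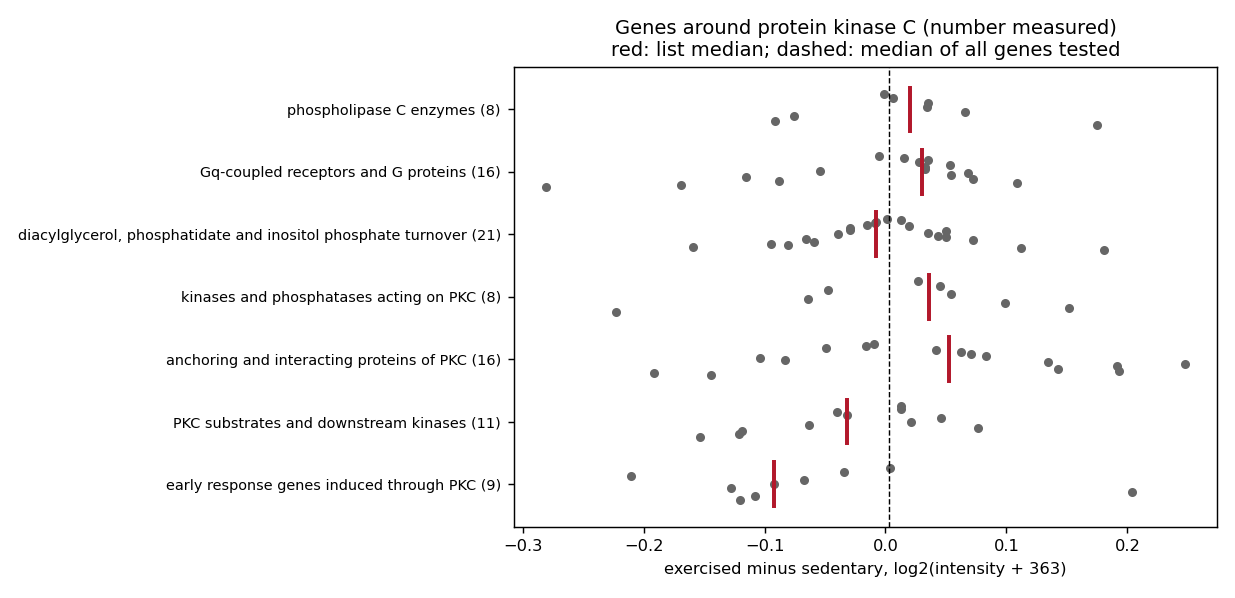
Exercised minus sedentary difference on the log2(intensity + 363) scale (horizontal axis) of each measured gene in the 7 lists around protein kinase C (grey points), with the list median in red and the median of all measured genes dashed. The list medians lie between -0.0925 for early response genes and 0.0522 for anchoring and interacting proteins, with points on both sides of 0 in each list.

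The labelled tissue showed markers of cardiomyocytes. The 9 measured cardiomyocyte markers summed to between 348043 and 373963 in exercised and between 339415 and 374648 in sedentary samples. Bright genes made up almost all of that sum. The dim marker Ryr2 spread more widely for its mean, with 739.1 ± 105 in exercised and 713.3 ± 228 in sedentary samples (SD). The sums of the lists below spanned wider ranges relative to their size. All 7 measured fibroblast markers were higher by sign in exercised samples, with none past the threshold, a median of 0.283 and sums of 48570 to 74779 against 38203 to 52221. Of 6 smooth muscle and pericyte markers 5 were higher (sums of 20443 to 25788 against 18731 to 21314). Erythroid and platelet markers were lower for 4 of 5 genes, with sums of 17292 to 42137 against 40511 to 46456. Most of that sum was Hbb (25034.1 ± 10300 against 34163.6 ± 2140, SD, limma adjusted p = 0.295), so it does not describe the list as a whole. The gene that was higher was the platelet marker Pf4 (0.0177). The sums for neuron and Schwann cell markers were 5137 to 6376 against 4867 to 5665. Of these genes Pmp22 gave 0.206, S100b 0.00581, Nefl -0.0146 and Snap25 -0.0505. For atrial markers the sums were 24360 to 43734 against 22481 to 51178. Of the 4 atrial markers 2 were higher (Pam and Nppa) and 2 lower by sign. The lower ones spread widely in sedentary samples. Myl7 had 1386.4 ± 78.6 in exercised and 2574.8 ± 2990 in sedentary samples, and Myl4 849.1 ± 41.4 and 1164.7 ± 484 (SD). Whether some samples held atrial tissue was not tested. No marker value was at 0, and the part of these cells in the isoform values was not tested.

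The gene whose values were most like those of each isoform was sought among 3870 other genes, over the 12 arrays with group means removed. It was Irf7 for Prkca (Pearson r = 0.847), Zp1 for Prkcb (0.909), Mylk2 for Prkcd (0.853), Scg5 for Prkce (0.914), Papss1 for Prkch (0.922) and Cyp2c11 for Prkcz (0.931). Only the brightest tested probe set of each isoform was used, E01789cds_s_at for Prkcb, M18330_g_at for Prkcd and M18331_g_at for Prkce. The likeness need not hold for other probe sets of the gene, since M18330_g_at and M18330_at of Prkcd had r = -0.605. Without the 2 arrays farthest from the isoform's median, r was 0.626 for Irf7 and between 0.874 and 0.902 for the other 5. Each is the highest of 3870 values, and the second highest lay between 0.821 and 0.928. These values describe likeness on these arrays only.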

How the data were processed

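The authors deposited 1 linear intensity for each probe set and array. The sources used here do not name the array software, background correction, scaling or detection calls, and the deposited scaling was kept. Arrays were assigned to groups by their titles. Gene names came from the platform annotation, in which 7006 of 8740 probe sets name 1 gene, 308 several and 1426 none.

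Values were turned into log2(intensity + 363), the pseudocount being the 20th percentile of all values. Probe sets with a mean above 434, the 25th percentile of means, were kept (6555). They were fitted in limma 3.58.1 under R 4.3.3 (lmFit, then eBayes with trend) and adjusted by Benjamini-Hochberg over all 6555, with a threshold of 0.05. An exact permutation test used all 924 regroupings of the arrays. The number of arrays limits the precision.

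For lists, the probe set of highest mean stood for a gene. Named genes were all members, and from each list those past the threshold and otherwise the 2 with the smallest p. The rule does not cover Cavin3 and the cell type markers named, which were picked with their values in view. The members and lists were chosen with earlier results of these data known. Alternatives were other pseudocounts, a floor, filters, scalings, limma settings, array weights, the permutation test and leaving out each array. Leaving out sedentary 16 and 17, or exercised 4 and 5, together was added after seeing the data.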

Additional observations from a re-analysis of the deposited data

Results flagged for a closer look

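Sedentary 17 lay far below the other 5 sedentary samples on 4 of the 14 protein kinase C probe sets, and it was the only array to stand apart in this way among the 28 groups of 6 values checked. Chance flags about 1 in 20 groups. Its intensity was 1046 on M18330_at of Prkcd, against 1210 to 1284 on the others. It was 1160 on M15523_s_at of Prkce (others 1459 to 1604) and 240 on M18331_at of Prkce (352 to 406). On the dim X04139_s_at of Prkcb it was 166, against 218 to 247.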

How the results depend on the processing

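No protein kinase C probe set passed an adjusted p of 0.05 under any of the 26 alternatives, and their number at an unadjusted p under 0.05 ran from 1, with the filter at the 50th percentile (which leaves out Prkca and Prkcb), to 4, and was 2 without exercised 4 and 5 or without sedentary 16 and 17. Prkca kept its sign in all 24 alternatives that measured it (-0.172 to -0.0805, adjusted p 0.103 to 0.322), Prkcb on K03486_s_at in 24 (-0.194 to -0.0974, 0.108 to 0.367) and Prkch in 25 (0.0914 to 0.135, 0.127 to 0.437). With 1 array left out, differences spanned 0 for Prkcd on M18330_at (-0.0391 to 0.00925) and for Prkce on M15523_s_at (-0.0759 to 0.00182) and M18331_g_at (-0.0595 to 0.00214). Without exercised 4 and 5 together they turned to 0.0141 for M18330_at, -0.01 for M18330_g_at, 0.0196 for M15523_s_at and 0.000159 for rc_AA799421_at.

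The number of all probe sets past the threshold was 21. It was 32 with no filter, 50 with the filter at the 50th percentile, 42 without trend, 160 with array weights, 144 at a threshold of 0.10 and 0 by the exact permutation test, whose smallest adjusted p is 0.104. It ran from 3 (without sedentary 23) to 37 (without sedentary 13) with 1 array left out, and was 4 without exercised 4 and 5 and 5 without sedentary 16 and 17. The cause was not tested. Of the pathway genes 1 passed with the filter at the 50th percentile (Htr2b, adjusted p = 0.0469) and 2 with array weights (Htr2b and Pawr, both 0.04), and 0 to 1 with 1 array left out (Htr2b without sedentary 13). With 1 array left out, list medians also ran from -0.0202 to 0.00705 for lipid messengers and inositol phosphates, and from 0.00706 (without sedentary 17) to 0.055 for kinases and phosphatases acting on protein kinase C. No paired analysis was possible because the groups share no sample numbers.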
